A study of Mus musculus with 7 samples.

Results

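The genes described here are 42 genes that build proteoglycans, picked by name from what their products do, with earlier results of these data known. All 42 had a row among the 23347 genes of the mouse liver table, and 41 of them passed the filter on low counts that left 15179 genes to be tested. By role they comprise 5 enzymes of the linker, 5 that lengthen or start heparan sulfate, 8 that modify it, 6 that build chondroitin sulfate, 9 that modify chondroitin or dermatan sulfate, 4 syndecans, 3 glypicans and 2 enzymes that make the sulfate donor.

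A proteoglycan is a core protein that carries long sugar chains, the glycosaminoglycans. Each chain starts from a short linker of xylose, galactose and glucuronic acid on a serine of the core protein, after which the EXT enzymes extend it as heparan sulfate or the chondroitin synthases extend it as chondroitin sulfate, and sulfotransferases then decorate it with sulfate taken from PAPS (3'-phosphoadenosine 5'-phosphosulfate). In liver, heparan sulfate on hepatocyte syndecans takes up triglyceride-rich lipoproteins from the space of Disse, and chondroitin and dermatan sulfate proteoglycans accumulate in scar tissue. B4galt1, the gene deleted in the study, encodes a galactosyltransferase best known for N-glycans, whereas the galactoses of the linker are added by other enzymes, B4galt7 and B3galt6.

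Liver RNA came from 4 B4galt1 flox/flox mice, named WT in the sample labels, and from 3 mice labelled B4galt1 hep-/- (B4-HKO in the labels), with 1 library per mouse. All were male mice of a C57BL/6 background, young adults when the diet began, and all had eaten the CDAHFD, a choline-deficient high-fat diet low in methionine that induces steatohepatitis, for 15 weeks. The flox/flox mice were littermates that carried the loxP-flanked B4galt1 alleles without Cre, and in B4galt1 hep-/- mice an albumin-driven Cre deletes it in hepatocytes but not in other liver cells. No chow-fed mice were analysed here, so each difference below is one between genotypes on the diet.

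The targeted gene did not follow its label in 1 library. B4galt1 measured 48.7, 53.0, 49.2 and 51.6 CPM in flox/flox mice 1 to 4 and 28.4, 23.9 and 53.7 CPM in the mice labelled hep-/- 1 to 3, where CPM are counts scaled to library size by TMM, which assumes that most genes do not differ. Mouse 3 labelled hep-/- thus stood at the flox/flox level, and the difference of -0.52 on the log2 scale (SE 0.26) did not pass the test over all 7 mice (edgeR adjusted p = 0.181), while it was -0.96 without that mouse (edgeR adjusted p = 0.0139). The count covers the whole gene and all liver cells, so transcripts that keep some exons, and those of other cells, stay in it. Flox/flox mouse 3 stood apart in another way, with 467 CPM summed over 8 sinusoidal endothelial markers against 131 to 187 CPM in the other flox/flox mice. Values without both mice are therefore given for each of the 42 genes that was called.

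Total counts were 37838654 to 39668509 in flox/flox and 30608271 to 34586588 in the labelled hep-/- libraries. Mitochondrially encoded genes took 3.88 to 7.996% of counts in the former and 14.4 to 22.6% in the latter. Hepatocyte markers summed to 93388 to 134802 against 102862 to 164581 CPM, and none of 10 was called. The 9 macrophage markers summed to 929 to 1902 CPM in flox/flox and to 476 to 529 CPM in the labelled hep-/- mice, with 4 of 9 called lower and none at 0 in any mouse, whereas 10 stellate cell and myofibroblast markers overlapped (428 to 820 against 413 to 876 CPM, 0 called). Beyond a fit without mitochondrially encoded genes, the part that these shifts have in the results below was not tested. In whole liver, fewer cells of a type cannot be told apart from less RNA per cell.

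Expression of the 42 genes spanned several orders of magnitude. On FPKM, the deposited unit that divides counts by gene length and library total and so allows genes to be compared with each other, 8 genes averaged over 10, 21 lay between 1 and 10, and 13 were under 1. The syndecan Sdc4 was highest, with a mean of 115 FPKM in flox/flox and 158 FPKM in labelled hep-/- mice, followed by Sdc1 (62.7 and 34.5 FPKM), the sulfate donor enzyme Papss2 (47.5 and 43.2 FPKM) and Sdc2 (32.0 and 32.3 FPKM). The 6-O-sulfotransferase Hs6st1 (25.5 and 20.6 FPKM) and the linker glucuronyltransferase B3gat3 (14.8 and 27.1 FPKM) were the most abundant enzymes that act on the chain itself. The chain polymerases were lower, Ext1 at 10.97 and 8.30 FPKM and Ext2 at 4.61 and 2.58 FPKM. The chondroitin synthase Chsy1 averaged 1.73 and 1.33 FPKM. These pairs rank genes and do not compare groups, since library totals include mitochondrially encoded genes, whose share differed. Papss2, for one, averaged 176 CPM in both groups.

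**Figure D1:**
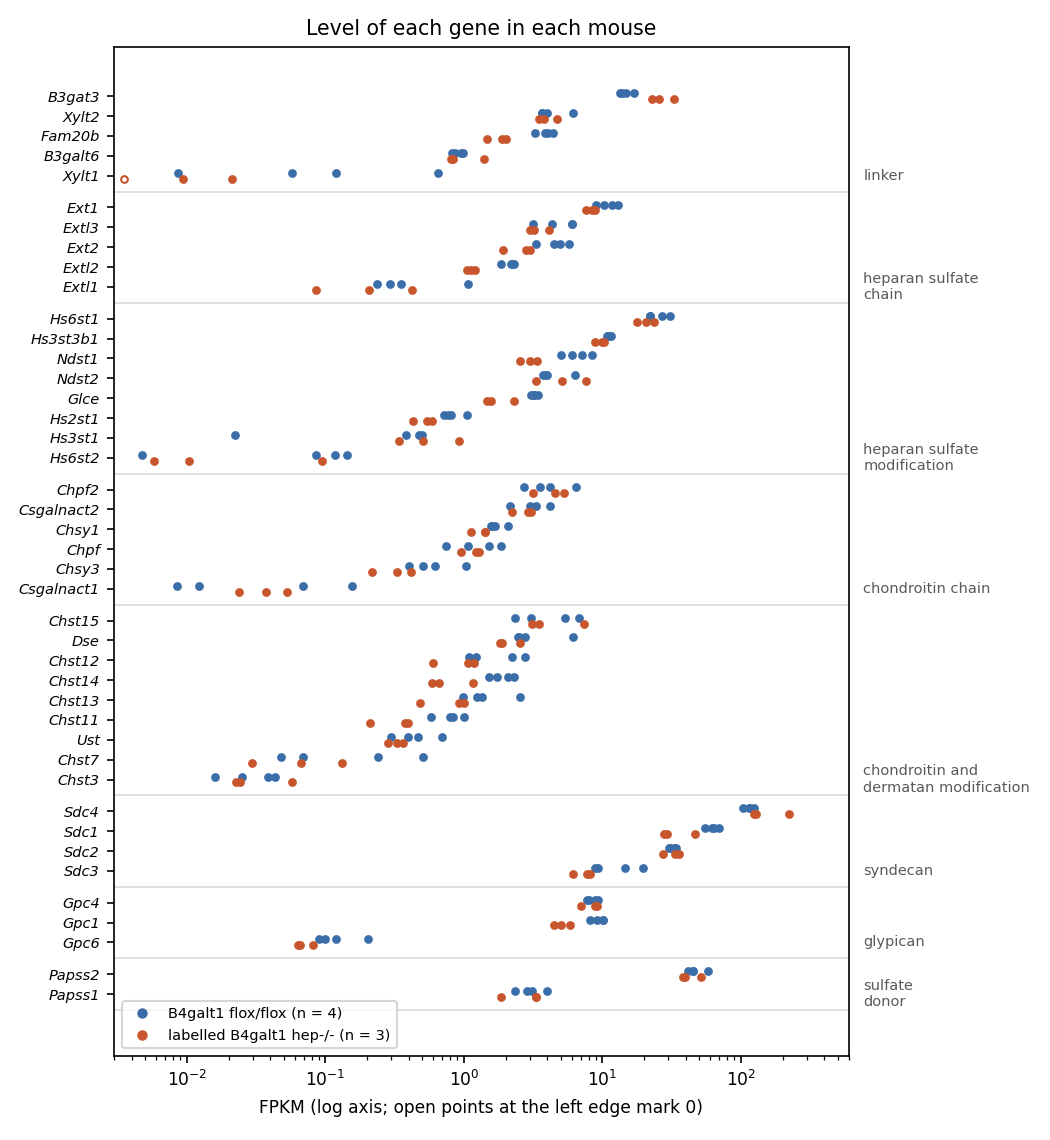
FPKM of each of the 42 genes in each mouse on a log axis, ordered by role and by mean level; blue points are the 4 flox/flox mice and orange points the 3 mice labelled hep-/-. Sdc4 and Sdc1 sit at the top of the range, and 13 genes average under 1 FPKM.

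Of the 41 genes tested, 7 were lower and 1 was higher in the mice labelled hep-/-. Calls required an absolute log2 fold change over 0.58 together with a p under 0.05 after adjustment by Benjamini and Hochberg over every tested gene, from the quasi-likelihood test of edgeR. The 8 called genes are 19.5% of the 41, beside 15.8% of all genes, the 7 lower ones are 17.1% beside 7.83%, and the 1 higher one stands beside 8.004%. Without overlap between the groups, 11 of the 41 lay wholly below the flox/flox mice, where 15.0% of all genes did, and 1 lay wholly above, where 13.6% did. Their median log2 fold change was -0.37 against 0.02 over all genes, and 29 of 41 (70.7%) were negative against 48.7%. The called genes were Fam20b, Ext2, Extl2, Ndst1, Chst11, Chst14 and Gpc1, all lower, and B3gat3, higher. Without both mice numbered 3, 5 of 40 tested genes were called, beside 9.39% of all genes. These were Fam20b, Ndst1, Glce and Sdc1, lower, and B3gat3, higher. Leaving out each mouse in turn gave 3 to 6 called genes, where 5.9 to 16.1% of all genes were called. The fit without flox/flox mouse 2 gave 3 of 41, beside 5.9% of all genes.

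**Figure D2:**
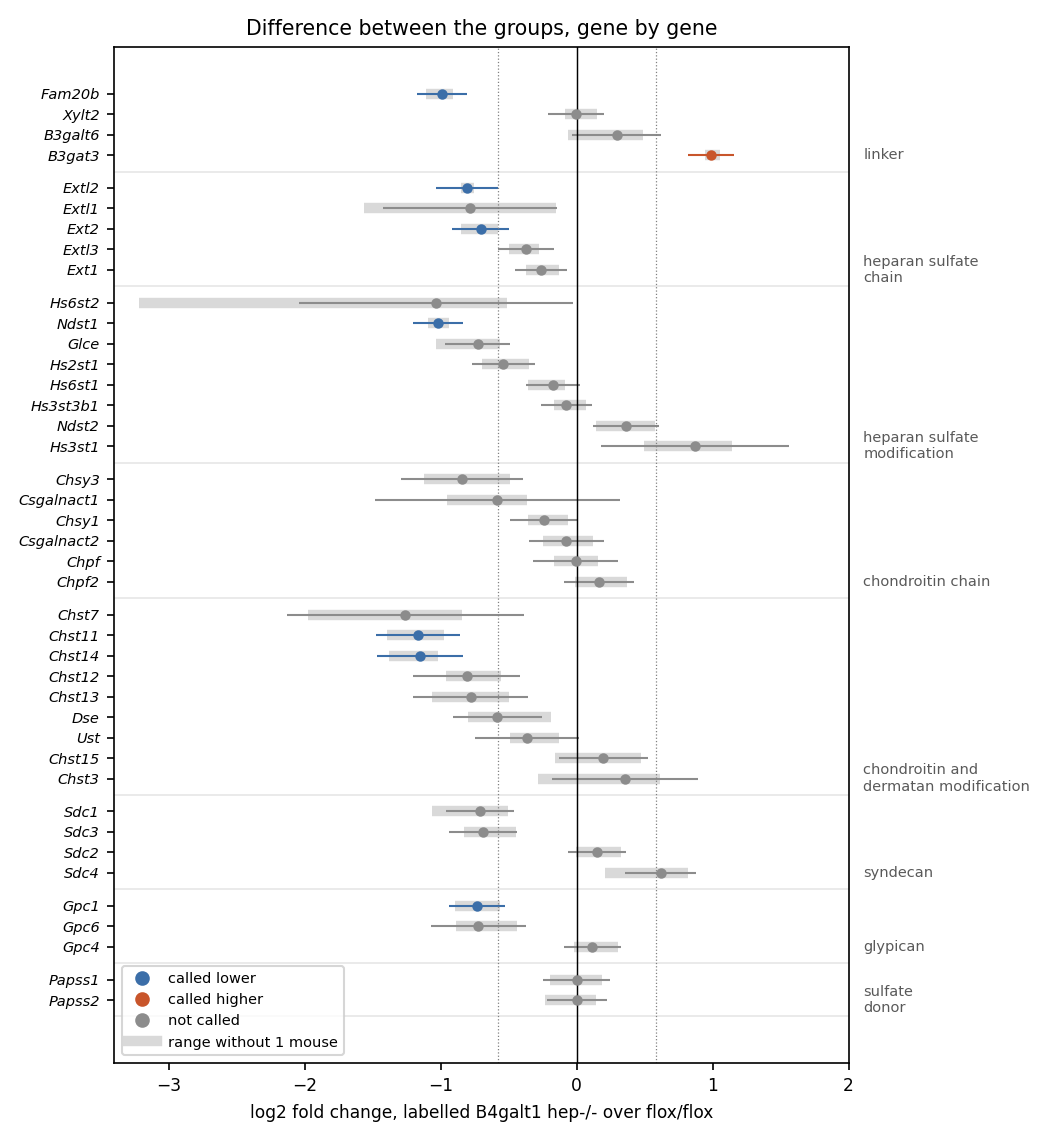
Log2 fold change of the 41 tested genes, labelled hep-/- over flox/flox, as points with bars of 1 SE; gray bands give the range of the 7 fits that each leave out 1 mouse (5 fits for Csgalnact1 and Chst7), and dotted lines mark 0.58 in either direction. Fam20b and Ndst1 near -1 and B3gat3 near 1 have narrow bands, and 33 gray points were not called.

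Within the linker, the kinase Fam20b and the glucuronyltransferase B3gat3 moved in opposite directions. B3gat3 (NCBI gene 72727), which adds the glucuronic acid that completes the linker, measured 23.7, 21.0, 20.2 and 25.2 CPM in flox/flox mice and 40.1, 47.8 and 46.4 CPM in the labelled hep-/- mice. The groups did not overlap, and B3gat3 was 1.99-fold higher (log2 fold change 0.99, SE 0.17, edgeR adjusted p = 0.00581). Fam20b (gene 215015), the kinase that phosphorylates the linker xylose and so favours the linker's completion, measured 21.8, 23.8, 25.3 and 21.8 CPM against 10.03, 11.6 and 13.3 CPM. Here every labelled hep-/- mouse lay below every flox/flox mouse, and the level was 1.99-fold lower (log2 fold change -0.99, SE 0.18, edgeR adjusted p = 0.00782). Both calls held in each of the 7 fits that left out 1 mouse, and without both mice numbered 3 the log2 fold changes were 0.91 for B3gat3 and -1.06 for Fam20b.

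The other linker enzymes were not called. Xylt2, the xylosyltransferase that starts the chain, had a log2 fold change of 0.00 (SE 0.20), and B3galt6, which adds the linker's last galactose, one of 0.30 (SE 0.33). Xylt1, the second xylosyltransferase, had 14, 7, 79 and 1 counts in flox/flox mice 1 to 4 and 0, 2 and 1 counts in the labelled hep-/- mice. With 4 of the 7 libraries under the 3 counts taken as the limit of detection, it did not pass the filter, and its largest count came from flox/flox mouse 3. Under the filter of at least 1 count in any mouse it was tested and called lower.

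The promoter windows of 4 called genes are shown as examples, B3gat3, called higher, and Fam20b, Ext2 and Chst14, all called lower. Each window holds 250 bases before and 50 bases after the annotated start, on the gene's strand, from RefSeq on GRCm38.p6, an older build than the GRCm39 named for the counts. B3gat3 lies at chr19:8920143-8920442 (plus strand), Fam20b at chr1:156718861-156719160 (minus strand), Ext2 at chr2:93822519-93822818 (minus strand) and Chst14 at chr2:118926247-118926546 (plus strand). Capitals mark matches on either strand to the GC box (GGGCGG), the E-box (CACGTG), the CCAAT box (CCAAT) or the ETS motif (CCGGAAG), none of which contains another.
B3gat3: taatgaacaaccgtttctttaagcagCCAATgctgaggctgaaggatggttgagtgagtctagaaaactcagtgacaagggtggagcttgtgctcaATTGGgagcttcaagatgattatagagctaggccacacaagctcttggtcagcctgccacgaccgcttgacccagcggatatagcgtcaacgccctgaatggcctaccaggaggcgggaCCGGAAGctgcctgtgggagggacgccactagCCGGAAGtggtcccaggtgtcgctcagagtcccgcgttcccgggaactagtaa
Fam20b: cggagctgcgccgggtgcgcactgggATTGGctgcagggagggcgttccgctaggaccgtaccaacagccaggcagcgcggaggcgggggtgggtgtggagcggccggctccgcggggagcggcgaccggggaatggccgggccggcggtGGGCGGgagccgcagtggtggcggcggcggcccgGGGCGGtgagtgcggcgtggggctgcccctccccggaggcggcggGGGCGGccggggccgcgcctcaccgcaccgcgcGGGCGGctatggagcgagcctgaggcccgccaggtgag
Ext2: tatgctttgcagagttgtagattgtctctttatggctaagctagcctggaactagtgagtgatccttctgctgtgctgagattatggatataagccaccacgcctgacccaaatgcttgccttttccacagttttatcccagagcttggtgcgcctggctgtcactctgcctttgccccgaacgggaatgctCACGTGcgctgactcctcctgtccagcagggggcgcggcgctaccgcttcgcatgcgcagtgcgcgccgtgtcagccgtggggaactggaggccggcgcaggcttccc
Chst14: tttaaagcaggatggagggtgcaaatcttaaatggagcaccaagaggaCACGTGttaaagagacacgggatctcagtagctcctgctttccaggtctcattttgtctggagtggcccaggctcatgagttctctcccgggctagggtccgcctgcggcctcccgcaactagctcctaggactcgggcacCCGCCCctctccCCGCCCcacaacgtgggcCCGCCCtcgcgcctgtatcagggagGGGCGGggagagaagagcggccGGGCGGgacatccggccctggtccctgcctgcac
The B3gat3 window held 2 ETS motifs and 2 CCAAT boxes and no GC box. The Fam20b window, 80.3% G and C, held 4 GC boxes and 1 CCAAT box, that of Ext2 held 1 E-box, and that of Chst14 held 1 E-box and 5 GC boxes. A window was found for 33 of the 42 genes and for 6 of the 8 called ones. GC boxes were present in 27 of the 33 against 38.2% of genes with a window, and E-boxes in 4 of 33 against 8.09%. The ETS motif occurred in 4 of 33 against 9.93%, the CCAAT box in 16 of 33 against 41.1%, and the TATA box (TATAAA) in 1 of 33 against 15.7%. The CRE (TGACGTCA) occurred in 1 of 33 against 2.03%. Of the 6 called genes with a window, 4 held a GC box, 3 an E-box (Ext2, Extl2 and Chst14) and 2 a CCAAT box. The ETS motif occurred in 2 of the 6, B3gat3, called higher, and Extl2, called lower. None held a TATA box or CRE. A match describes the letters of a window and was not tested for any role in expression.

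All 5 enzymes of the heparan sulfate chain had negative log2 fold changes, as did 48.7% of all genes, and 2 of 5 were called lower, as were 7.83% of all genes. Ext1 and Ext2 form the polymerase that extends the chain. Ext2 (gene 14043) measured 25.9, 25.4, 21.4 and 18.4 CPM in flox/flox and 11.04, 14.4 and 16.4 CPM in labelled hep-/- mice. All of the latter lay below the former, by a log2 fold change of -0.71 (SE 0.21, edgeR adjusted p = 0.042). Ext1, the more abundant partner, measured 35.4, 44.4, 33.1 and 33.3 CPM against 32.3, 24.6 and 34.7 CPM. These ranges overlapped, and Ext1 was not called (log2 fold change -0.26, SE 0.19, edgeR adjusted p = 0.372). Extl2 (gene 58193), an enzyme that can cap the phosphorylated linker and stop its extension, measured 6.81, 8.16, 7.24 and 7.06 CPM against 4.38, 3.92 and 4.24 CPM, a pair of tight groups without overlap. Its log2 fold change was -0.81 (SE 0.23, edgeR adjusted p = 0.0361). Extl3, which starts the heparan sulfate chain, had -0.37 (SE 0.20), and the scarce Extl1 had -0.78 (SE 0.64), neither called. Over the fits without 1 mouse, the Extl1 value ranged from -1.56 to -0.15.

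The adjusted p of both genes moved across the threshold when mice were left out, while both log2 fold changes stayed negative. Ext2 was still called without flox/flox mouse 4 or labelled hep-/- mouse 3, but its adjusted p (edgeR) was 0.0625 to 0.122 without any 1 of the other 5 mice, and 0.0589 without both mice numbered 3. Its log2 fold change was -0.85 to -0.58 over the fits without 1 mouse and -0.88 without both. Extl2 was called in 0 of the 7 fits without 1 mouse, with an adjusted p (edgeR) of 0.0511 to 0.119 and a log2 fold change between -0.85 and -0.75, and without both mice numbered 3 the adjusted p (edgeR) was 0.0828.

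Of 8 enzymes that modify heparan sulfate, Ndst1 was called lower (12.5%, beside 7.83% of all genes) and 7 others were not called. Ndst1 (gene 15531), the N-deacetylase/N-sulfotransferase whose step opens the way for the later modifications, measured 95.5, 78.9, 85.9 and 70.3 CPM in flox/flox and 36.9, 40.9 and 44.5 CPM in labelled hep-/- mice. The lowest flox/flox mouse stood well above the highest labelled hep-/- mouse, and Ndst1 was 2.03-fold lower (log2 fold change -1.02, SE 0.18, edgeR adjusted p = 0.00703). It was called in all 7 fits that left out 1 mouse and had -1.07 without both mice numbered 3. Its paralog Ndst2 measured 21.9, 14.5, 14.3 and 16.8 CPM against 14.5, 27.7 and 22.8 CPM, with overlap and no call (log2 fold change 0.36, SE 0.25, edgeR adjusted p = 0.327).

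Glce, the epimerase that turns glucuronic into iduronic acid, measured 13.1, 16.6, 14.4 and 16.7 CPM in flox/flox mice and 7.89, 6.997 and 12.6 CPM in the labelled hep-/- mice. The groups did not overlap, but mouse 3 labelled hep-/-, the one with B4galt1 at the flox/flox level, came close to them. Glce missed the threshold over all mice (log2 fold change -0.73, SE 0.24, edgeR adjusted p = 0.0601) and passed it without that mouse (-1.04, edgeR adjusted p = 0.020), without both mice numbered 3 (-1.06, edgeR adjusted p = 0.030) and in DESeq2 (adjusted p = 0.0314). Hs2st1, the 2-O-sulfotransferase, had 12.8 to 18.5 CPM against 7.48 to 12.4 CPM, also without overlap, and was not called (log2 fold change -0.54, SE 0.23, edgeR adjusted p = 0.127). Hs6st1, the most abundant sulfotransferase of the group, measured 99.5, 101, 75.6 and 88.3 CPM against 72.7, 70.5 and 99.3 CPM. Its ranges overlapped (log2 fold change -0.17, SE 0.20, edgeR adjusted p = 0.582).

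The remaining 3-O- and 6-O-sulfotransferases did not pass either. Hs3st3b1 had a log2 fold change of -0.08 (SE 0.19), and since its reads may be shared with the near-identical copy Hs3st3a1, its level is uncertain. Hs3st1 had 0.87 (SE 0.69) from at most 2.02 CPM, and Hs6st2 had -1.03 (SE 1.01) from at most 0.803 CPM.

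None of the 6 enzymes that build chondroitin sulfate was called, beside 15.8% of all genes. Chpf2, the most abundant, measured 42.2, 30.8, 18.7 and 28.2 CPM in flox/flox mice and 26.0, 36.1 and 38.5 CPM in the labelled hep-/- mice, with full overlap (log2 fold change 0.16, SE 0.26, edgeR adjusted p = 0.693). Its sign turned without flox/flox mouse 3, the lowest of the 7. The polymerizing enzymes Chsy1 and Chpf had log2 fold changes of -0.24 (SE 0.25) and -0.01 (SE 0.31), and Chsy3 had -0.84 (SE 0.45, edgeR adjusted p = 0.213). The enzymes that add the first N-acetylgalactosamine gave -0.08 (SE 0.28) for Csgalnact2 and -0.58 (SE 0.90) for Csgalnact1, the latter from at most 0.89 CPM.

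Of 9 enzymes that modify chondroitin and dermatan sulfate, 2 were called lower (22.2%, beside 7.83% of all genes). Both are 4-O-sulfotransferases of low abundance. Chst11 (gene 58250), which sulfates chondroitin, measured 4.78, 5.72, 6.40 and 4.29 CPM in flox/flox and 3.02, 2.41 and 1.64 CPM in labelled hep-/- mice. The groups were apart, and the log2 fold change was -1.17 (SE 0.31, edgeR adjusted p = 0.0286). Chst14 (gene 72136), which sulfates dermatan, measured 3.84, 3.64, 4.45 and 3.42 CPM against 1.36, 2.23 and 1.58 CPM. These did not overlap either (log2 fold change -1.15, SE 0.32, edgeR adjusted p = 0.0326).

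The calls of both genes were sensitive to single mice. Chst11 remained called without flox/flox mouse 1 or 4 or labelled hep-/- mouse 1, and had an adjusted p (edgeR) of 0.0627 to 0.0888 without any 1 of the other 4. Chst14 was called only without labelled hep-/- mouse 2 (edgeR adjusted p = 0.034) and had 0.0543 to 0.0894 without any 1 of the other 6. Without both mice numbered 3 the log2 fold changes were -0.87 for Chst11 (edgeR adjusted p = 0.115) and -1.02 for Chst14 (edgeR adjusted p = 0.113).

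**Figure D3:**
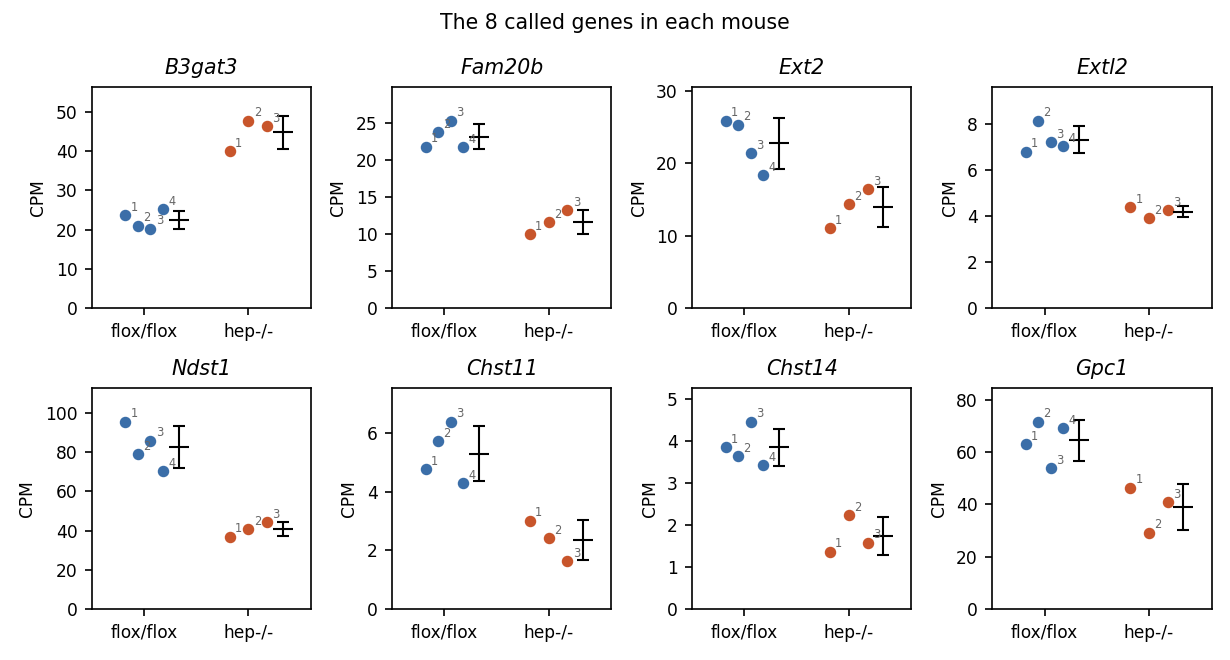
CPM of the 8 called genes in each of the 7 mice, numbered as in the labels, with the group mean and SD as black bars beside the points; blue is flox/flox and orange labelled hep-/-. B3gat3 alone is higher in the labelled hep-/- mice, from 40.1 CPM upward, and no panel shows overlap between the groups.

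The other modifying enzymes of this branch were not called. Chst15, which adds a second sulfate to chondroitin, was the most abundant and varied within the groups, at 27.9, 17.9, 37.2 and 14.7 CPM in flox/flox and 20.2, 40.2 and 23.6 CPM in labelled hep-/- mice. It had no separation (log2 fold change 0.20, SE 0.33, edgeR adjusted p = 0.707), and its sign turned without labelled hep-/- mouse 2, the highest. Dse, the epimerase that makes dermatan sulfate, had -0.58 (SE 0.33, edgeR adjusted p = 0.24), with 28.1 CPM in flox/flox mouse 3 against 8.60 to 14.6 CPM in the 6 other mice. Without flox/flox mouse 3 the Dse value was -0.19, and without both mice numbered 3 it was -0.15. The 4-O-sulfotransferases Chst12 and Chst13 had -0.81 (SE 0.39) and -0.78 (SE 0.42), and Ust, the uronyl 2-O-sulfotransferase, had -0.36 (SE 0.38). The 6-O-sulfotransferases Chst3 and Chst7 had 0.35 (SE 0.54) and -1.26 (SE 0.87), from at most 1.46 and 1.03 CPM.

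None of the 4 syndecans was called over all 7 mice, beside 15.8% of all genes. Sdc1, the main heparan sulfate proteoglycan of hepatocytes, measured 199.7, 212, 168 and 219.8 CPM in flox/flox mice and 106.9, 85.3 and 174 CPM in the labelled hep-/- mice. Mice 1 and 2 labelled hep-/- were far below all others, while mouse 3 lay above flox/flox mouse 3, so the groups overlapped. The log2 fold change was -0.71 (SE 0.25, edgeR adjusted p = 0.0735), became -1.06 without labelled hep-/- mouse 3 (edgeR adjusted p = 0.0155) and -1.14 without both mice numbered 3 (edgeR adjusted p = 0.0218), and was called by DESeq2 over all mice (adjusted p = 0.0317). Sdc4 measured 281, 283, 319 and 340.0 CPM against 381, 330.3 and 697 CPM. It was not called (log2 fold change 0.62, SE 0.26, edgeR adjusted p = 0.121), and the value was 0.21 without labelled hep-/- mouse 3, which had the highest level. Sdc3 had 53.1 to 104 CPM against 40.1 to 52.0 CPM, without overlap and not called (log2 fold change -0.69, SE 0.25, edgeR adjusted p = 0.0827). The Sdc3 value was -0.45 without flox/flox mouse 3, the highest, and -0.38 without both mice numbered 3, and Sdc3 was called lower under the filter of at least 1 count in any mouse. Sdc2 had a log2 fold change of 0.15 (SE 0.21).

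Shares within the family do not depend on how libraries are scaled, though a family's shares depend on each other, and they are given as a description with no test. Sdc1 made up 30.0, 30.8, 23.9 and 28.3% of summed syndecan FPKM in flox/flox mice and 15.0, 14.5 and 15.0% in labelled hep-/- mice. The share was thus alike in all 3 of the latter and below every flox/flox mouse, but the Sdc1 level was not alike. Labelled hep-/- mouse 3 had 46.4 FPKM of Sdc1 against 29.3 and 28.0 FPKM in mice 1 and 2. Its Sdc4, part of the same sum, was also higher, at 222 FPKM against 124 and 129 FPKM. Sdc4 made up 50.4, 49.1, 54.2 and 52.2% against 63.7, 67.2 and 71.5%, again without overlap. The shares of Sdc2 (14.4% ± 1.32 against 14.3% ± 2.74, SD) and Sdc3 (5.85% ± 2.06 against 3.39% ± 1.23, SD) overlapped.

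Of the 3 glypicans, which are tied to the membrane by a lipid anchor, Gpc1 was called lower (33.3%, beside 7.83% of all genes). Gpc1 (gene 14733) measured 63.1, 71.5, 53.9 and 69.3 CPM in flox/flox and 46.4, 29.2 and 40.9 CPM in labelled hep-/- mice. The groups did not overlap (log2 fold change -0.73, SE 0.21, edgeR adjusted p = 0.0346). The call held without flox/flox mouse 1 or 3 or labelled hep-/- mouse 1, while the adjusted p (edgeR) was 0.0584 to 0.102 without any 1 of the other 4, and 0.0641 without both mice numbered 3. Gpc4 measured 45.7, 46.9, 41.7 and 58.0 CPM against 57.5, 37.9 and 61.1 CPM, with overlap (log2 fold change 0.12, SE 0.21, edgeR adjusted p = 0.729, sign turned without labelled hep-/- mouse 3). Gpc6 was scarce and had 2.861 to 5.997 CPM against 1.87 to 2.857 CPM, so its groups all but touched (log2 fold change -0.72, SE 0.35, edgeR adjusted p = 0.173). Its value was -0.44 without flox/flox mouse 3, the highest, and also without both mice numbered 3.

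Shares were also taken for the glypicans and for the NDST and EXT pairs, as a description with no test. Gpc1 held 52.8, 55.4, 50.8 and 49.3% of summed glypican FPKM in flox/flox and 39.7, 38.6 and 35.3% in labelled hep-/- mice, and Gpc4 held nearly all of the rest, 47.2% ± 2.53 against 61.6% ± 2.30 (SD). For Ndst1 the share of the sum with Ndst2, chosen after its values were seen, was 56.7, 62.1, 64.3 and 55.7% against 43.4, 30.7 and 36.9%. Ndst1 was thus the larger part in every flox/flox mouse and the smaller in every labelled hep-/- mouse. The share of Ext2 in its sum with Ext1, also chosen afterwards, overlapped at 29.4% ± 2.71 against 23.6% ± 4.80 (SD).

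**Figure D4:**
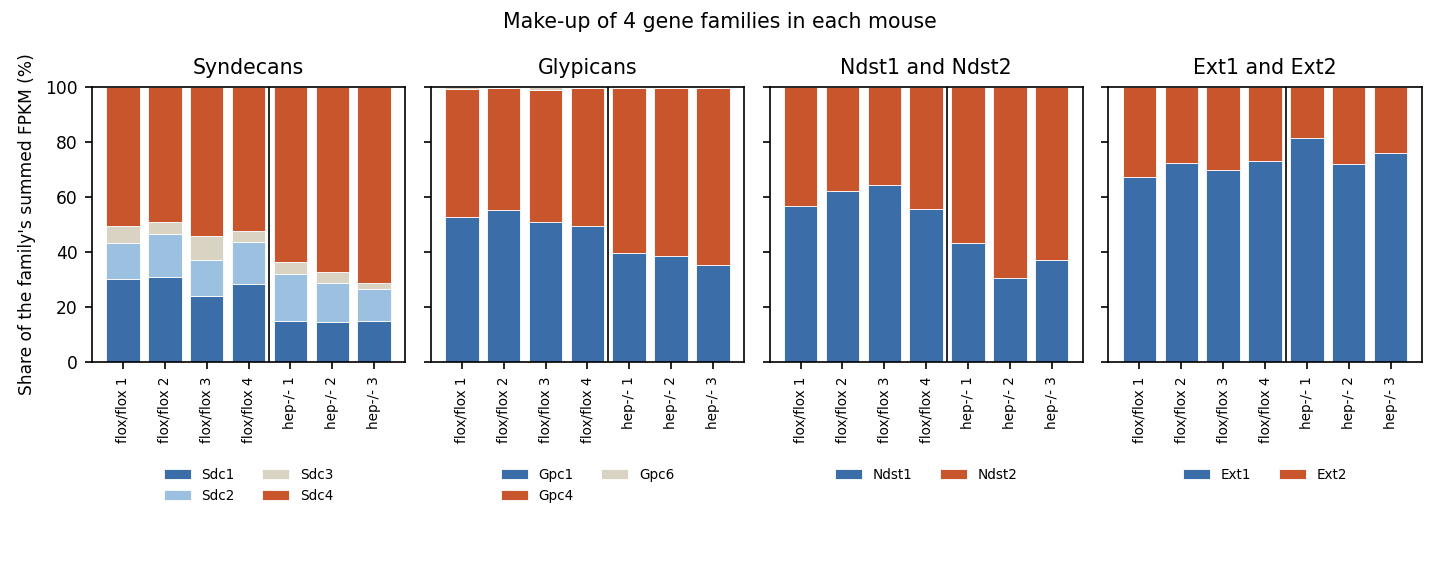
Share of each member in the summed FPKM of its family, in percent, for each of the 7 mice, with a line between the 4 flox/flox and the 3 labelled hep-/- mice. Sdc1, Gpc1 and Ndst1 hold smaller shares in every labelled hep-/- mouse than in any flox/flox mouse, and the Ext1 and Ext2 shares overlap.

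The enzymes that make PAPS, the sulfate donor for all these sulfotransferases, did not differ beyond their spread. Papss2, the main liver form, measured 152, 159.5, 207 and 185 CPM in flox/flox mice and 161, 140.4 and 227 CPM in the labelled hep-/- mice. The ranges overlapped almost fully (log2 fold change 0.00, SE 0.22, edgeR adjusted p = 0.993). Papss1 had 8.31 to 12.3 CPM against 7.01 to 12.2 CPM (log2 fold change 0.00, SE 0.25).

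A wider list of 74 glycosaminoglycan genes outside the 42 had 54 tested genes, of which 13 were called lower (24.1%, beside 7.83% of all genes). Their median log2 fold change was -0.33. Of 12 genes that supply sugars and sulfate, 4 were lower (33.3%, beside the same 7.83%), the PAPS transporter Slc35b2, the nucleotide sugar transporter Slc35d2, and the sulfate transporters Slc26a1 and Slc26a2. Slc26a2 was scarce, with 26 to 119 counts in flox/flox and 4 to 10 counts in labelled hep-/- mice (log2 fold change -2.78, SE 0.63, edgeR adjusted p = 0.016). It entered the test through its flox/flox counts and was not tested under a filter of at least 10 counts in every mouse.

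Of 7 remaining chain enzymes, 1 was lower (14.3%, beside 7.83% of all genes), the scarce 3-O-sulfotransferase Hs3st6, with 19 to 35 counts against 4 to 8. Its log2 fold change was -1.98 (SE 0.57, edgeR adjusted p = 0.0374). Hs3st6 too entered the test through its flox/flox counts and was not tested with at least 10 counts in every mouse. Under that filter, 12 genes of the wider list were called. Among the same enzymes, B4galt7, which adds the linker's first galactose, missed the threshold (log2 fold change 0.55, SE 0.19, edgeR adjusted p = 0.069). Of 18 core proteins, 2 were lower (11.1%, beside 7.83% of all genes), the small leucine-rich proteoglycans Prelp and Lum. Prelp had a log2 fold change of -1.32 (SE 0.27, edgeR adjusted p = 0.0107). Of 17 lysosomal and other breakdown enzymes, 6 were lower (35.3%, beside 7.83% of all genes) and 15 had a negative log2 fold change (88.2%, beside 48.7%), the 6 being Sgsh, Naglu, Gusb, Arsb, Galns and Hexa. The macrophage marker sums given above were lower in the same mice, and their part in this was not tested. The hyaluronan synthases Has1, Has2 and Has3 did not pass the filter. The number of called genes in this list was 4 without flox/flox mouse 2, without labelled hep-/- mouse 2, or without both mice numbered 3. In these fits, 5.9, 7.76 and 9.39% of all genes were called, against 15.8% over all mice. Of the 13 lower genes, Arsb, Galns and Gusb kept their call without both mice numbered 3, and the adjusted p (edgeR) of the 10 others was then 0.0512 to 0.13.

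The summed macrophage markers were lower in the labelled hep-/- mice, with 4 of 9 called lower (Adgre1, Cd68, Trem2 and Gpnmb), 4 others not called and Cd163 at a log2 fold change of 0.86, also not called. Gpnmb was the most abundant of the 9, at a mean of 709 CPM in flox/flox and 215 CPM in labelled hep-/- mice. The summed stellate cell markers and the summed hepatocyte markers overlapped between the groups. Of the 10 hepatocyte markers, 1 lay wholly above the flox/flox mice, Apoa1, which was not called (edgeR adjusted p = 0.109). The share of counts from mitochondrially encoded genes also separated the groups. The part of the macrophage markers and of this share in the calls was not tested. Exons of the called genes Fam20b and Gpc1 overlap those of genes on the opposite strand in GENCODE M21 on GRCm38 (Gm19918 and Ankmy1). The same holds for Chpf2 (Smarcd3), Chst15, Chsy1, Hs6st1 and Sdc3, and exons of Chpf2 and Glce overlap a microRNA gene on their own strand. As the strand setting of the counting is not given in the sources used here, reads of these pairs cannot be told apart. Of the 39 genes that could be fitted without each of the 7 mice in turn, 27 kept the sign of their log2 fold change, and 3 genes, B3gat3, Fam20b and Ndst1, kept their call.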

How the data were processed

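Liver RNA was extracted with TRIzol and made into libraries with a VAHTS Universal V6 kit. The authors deposited raw counts, whole numbers of reads per gene and mouse, and FPKM values, in which the authors divided each count by gene length and library total. The submitters' processing notes name fastp, HISAT2, HTSeq, DESeq2, R 3.2.0 and GRCm39, and options, annotation and strand setting are not given in the sources used here. No column of sample values was left unused.

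Counts were filtered with filterByExpr (minimum count 10, minimum total count 15), scaled by TMM and compared between groups, with no covariate, by the quasi-likelihood F-test of edgeR 4.0.16 (R 4.3.3), with Benjamini-Hochberg adjustment over 15179 genes. SEs were computed from the F statistic. Totals of 30608271 to 39668509 counts make 3 counts equal to 0.0690 to 0.0987 CPM, a floor for counting error alone. No library pair among 21 agreed within sampling noise. The test was first run on simulated data. Alternatives were DESeq2 1.42.0, limma 3.58.1 on log2-transformed FPKM with a pseudocount of 1 or 0.1 where 3 mice reached an FPKM of 1, voom with sample quality weights, RLE and upper-quartile scaling, looser and stricter filters (1 count in any mouse, 10 in every mouse), no mitochondrially encoded genes, the replicate number as a block, and each mouse left out. Leaving out both mice numbered 3, and mice 1 to 3 without the block, were chosen after seeing the data.

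The 42 genes, the wider list and the marker lists were chosen with earlier results of these data known. Every one of the 42 is named; values per mouse are given for those called, those whose call differed in DESeq2 or without 1 mouse, and the one highest in FPKM in each role. Of the wider list, genes called lower are named, and 1 gene is not reported here. Ndst2 and the shares of the NDST and EXT pairs were added after their values were seen. The mice are separate animals, and replicate numbers come from the labels.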

Additional observations from a re-analysis of the deposited data

Results flagged for a closer look

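In flox/flox mice, 3 of the 42 genes had 1 mouse far from the other 3 by Dixon's test, out of 43 genes so examined with B4galt1, where chance marks about 1 in 20. Xylt1 measured 1.85 CPM in flox/flox mouse 3 against 0.0283 to 0.322 CPM in the others. Extl1 measured 3.96 CPM in flox/flox mouse 1 against 1.07 to 1.48 CPM. Gpc6 measured 5.997 CPM in flox/flox mouse 3 against 2.86 to 3.39 CPM. Groups of 3 mice were not examined.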

How the results depend on the processing

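B3gat3, Fam20b and Ndst1 were called in every fit. DESeq2, RLE, upper-quartile scaling, both count filters, both FPKM fits, voom and no mitochondrially encoded genes each gave 8 to 10 called genes, 1 higher. Of the 42 genes, 29 were tested in the FPKM fits, 37 under the stricter filter, 42 under the looser one and 41 in the others. Of all genes tested, 12.3 to 22.1% were called in these fits, with 21.5% in DESeq2. With the replicate block 3 were called (2 lower), and the same 6 mice without it gave 5 (4 lower), as did leaving out both mice numbered 3. Replicate numbers did not pair the mice (correlations of same-numbered deviations -0.42, -0.10 and 0.09). Each mouse left out gave 3 to 6 called and 2 to 5 lower, and 4 to 10 called in the wider list, which had 6 with the block, 9 without it and 4 without both mice numbered 3. The median log2 fold change was -0.48 with at least 1 count in any mouse, -0.29 on log2(FPKM + 1), -0.25 with voom, -0.47 with the block, -0.49 without it, -0.28 without both mice numbered 3, and -0.49 to -0.25 with each mouse left out. Over all genes the 2404 calls became 885 (without flox/flox mouse 2) to 2396 with each mouse left out, 1225 with the block and 1454 without both mice numbered 3. On FPKM the median of all genes shifted by -0.12 and -0.13, and 24.5% and 23.1% of calls were higher, against 50.5%.

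B4galt1 passed on log2(FPKM + 1) at -0.67 and without both mice numbered 3 at -0.97, with -0.96 to -0.30 over each mouse left out. Signs of uncalled genes turned, and the cause was not tested. Chpf2 was -0.13 without both mice numbered 3 and -0.010 to 0.37 over each mouse left out. Chst15 ranged from -0.16 to 0.47 over the latter. Gpc4 was -0.025 on log2(FPKM + 1), -0.029 on log2(FPKM + 0.1), -0.080 without both mice numbered 3, and -0.020 to 0.30 over each mouse left out. Papss2 was -0.015 with at least 1 count in any mouse, -0.14 on both FPKM scales and without both mice numbered 3, and -0.23 to 0.14 over each mouse left out. With 3 to 4 mice a group, 5 of the 8 calls sat close to the threshold.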
